A study of Saccharomyces cerevisiae with 12 samples.

Results

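The genes described here encode proteins of the mitochondrial ribosome of budding yeast, followed through the first 6.0 h of sporulation. Members were the array genes whose standard symbol, looked up by systematic name, is MRPL, MRPS, MRP or RSM followed by a number. A total of 66 of the 6293 array genes met this rule. Of these, 38 encode proteins of the large subunit and 27 proteins of the small subunit, and MRP8 belongs to neither. The gene table holds 67 symbols of this form; MRP10 was not among the array identifiers. All 66 members had a value at every time.

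The mitochondrial ribosome translates the few messages encoded by mitochondrial DNA, which in yeast give mainly membrane subunits of the respiratory chain and of ATP synthase. Nearly all of its proteins are encoded in the nucleus, made in the cytosol and imported, and they assemble on ribosomal RNAs of mitochondrial origin into a large subunit, where peptide bonds form, and a small subunit, where the message is decoded. Some of these proteins have bacterial homologues and others are particular to mitochondria. Sporulating yeast lives on a non-fermentable carbon source and depends on respiration. By homology the large subunit members split into 24 with a bacterial homologue and 14 without, and the small subunit members into 17 and 10.

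Total RNA of the SK1 strain, which sporulates quickly and synchronously, was taken at 0.0, 0.5, 1.0, 1.5, 2.0, 2.5, 3.5, 4.0, 4.5, 5.0, 5.5 and 6.0 h, each time being 1 sample pooled from 6 cultures of the same day. Time-zero RNA was the partner of each sample on 2 arrays, labelled Cy3 on the array called A and Cy5 on the array called B. All groups share the strain and the reference. Values are log2 ratios of the later RNA over time-zero RNA, so that 1 is a doubling, 0 no difference and -1 a halving, averaged over both arrays. The times formed 4 windows, zero (0.0 h, n = 1), early (0.5 to 2.0 h, n = 4), middle (2.5 to 4.5 h, n = 4) and late (5.0 to 6.0 h, n = 3). Successive times stand in for replicates, so p-values measure the spread between times of a window, including real change within it. In bulk RNA, fewer cells expressing a gene and less RNA per cell cannot be told apart.

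The arrays measured these genes at low signal. A member counted as above the blanks where its signal passed the 95th percentile of the buffer-only spots, which the later RNA did on a median of 11 of 24 arrays, against 13 over all genes. The time-zero channel did so on a median of 12.5 arrays, against 13 over all genes. For 32 of 66 members neither channel did so on more than 12 arrays, against 2583 of all 6283 genes, so low signal was common on the whole array. For MRPL15 neither channel did on any array, so its ratio is not read here. Members above the blanks numbered from 4 of 66 on the 0.5 h B array to 65 on the 0.0 h A array. Across members the paired arrays correlated with r from -0.0878 at 2.0 h to 0.663 at 5.5 h (median 0.182), as a description over genes that share arrays. At 5.0 and 6.0 h it was 0.159 and -0.0384. Over all genes r was -0.0109 at 5.0 h, 0.509 at 5.5 h and -0.0206 at 6.0 h, so 2 of the 3 late samples rest on arrays that did not correlate. The paired arrays of 5.0 and of 6.0 h disagreed on the 7 markers of sporulating cells. Their median was -0.03 on the A array of 5.0 h, with the highest at 0.49, against 6.42 over the 5 measured on the B array. At 6.0 h it was 7.69 on the A array and 0.19 on the B array, with the highest there at 2.07, so 1 array of each of these times showed the markers near time zero. At 5.5 h it was 3.13 on the A and 6.40 on the B array. Averaged over both arrays at the 3 late times, IME1, the early regulator of meiosis, was at -0.01, -0.23 and 0.16 and NDT80, the regulator of the middle sporulation genes, at 3.99, 5.01 and 3.59. The members' own medians were 0.00 and -0.27 on the 5.0 h arrays and -0.25 and -0.02 on the 6.0 h arrays. Among haploid cell markers, STE18 stood at 4.70 and STE4 at 3.70 at 5.5 h, whereas the G-protein subunit gene GPA1 was at -0.43. The part of either marker list in the members' values was not tested.

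Both subunits lay near or below time zero until 5.0 h and stood above it at 5.5 h. The large subunit median was -0.42 at 0.5 h, -0.07 at 1.0 h, -0.06 at 1.5 h and -0.39 at 2.0 h. In the middle window it was -0.40, -0.10, -0.49 and -0.32, and in the late window -0.34, 0.38 and 0.02. The small subunit median was -0.26, 0.03, -0.11 and -0.45 at the early times, -0.39, -0.16, -0.24 and -0.12 at the middle times, and -0.15, 0.56 and -0.11 at the late times. For each subunit the highest median was thus that of 5.5 h, while 6.0 h was back near 0. The median over all genes stayed between -0.01 and 0.04 throughout.

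**Figure D1:**
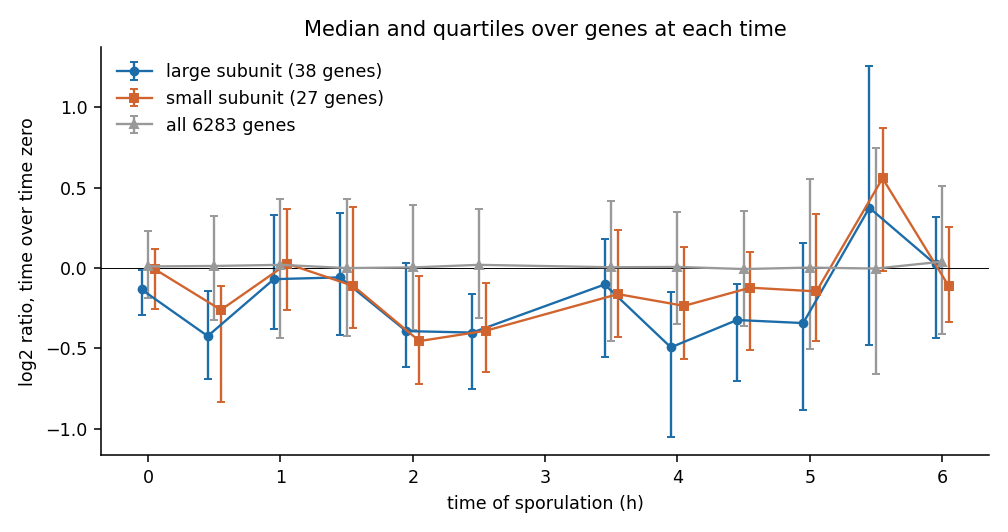
Median log2 ratio over time zero (y axis) at each of the 12 times (x axis, hours) for large subunit, small subunit and all genes; bars span the lower to the upper quartile over genes, not replicate error. Both subunits are highest at 5.5 h (0.38 and 0.56) and the all-gene median stays near 0.

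At 0.5 h most members of both subunits lay below time zero. Both arrays gave a ratio below 0 for 43 of 66 members (65.2%), against 29.5% of all genes, and a ratio above 0 for 2 members (3.03%), against 30.9%. The share was 65.8% in the large and 63.0% in the small subunit. The shift was not particular to the members. Their median at 0.5 h was -0.36, with 12.1% above 0. For the 134 cytosolic ribosomal protein genes it was -0.42, with 12.7% above 0. For the 38 nuclear genes of the respiratory chain it was -0.49, with 18.4% above 0. The 2 members below -1 on both arrays were MRPL17, a mitochondria-specific large subunit protein (-1.86 and -1.12), and MRPL9, homologous to bacterial L3 (-1.01 and -1.04), against 2.79% of all genes. The later RNA at 0.5 h was above the blanks for 21 members on the A array and 4 on the B array, its lowest count. The authors' deposited table does not show this shift, with medians of -0.07 for the large and 0.04 for the small subunit, and its 0.5 h column followed the arrays over all genes with r = 0.158, against 0.877 to 0.963 at the other times.

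In the middle window most large subunit genes lay below 0 on both arrays at all times but 3.5 h. At 2.5, 4.0 and 4.5 h, 24 of 38 large subunit genes (63.2%) were below 0 on both arrays, and 12, 10 and 11 of 27 small subunit genes (44.4%, 37.0% and 40.7%); the background was 25.9%, 26.7% and 31.6%. At 4.0 h, 6 large subunit genes and no small subunit gene were below -1 on both arrays, against 1.96% of all genes. They were MRPL28, at -2.76 and -1.57, MRPL19, at -1.83 and -1.94, MRP20, at -2.01 and -1.53, MRPL13, at -1.80 and -1.11, MRP7, at -1.01 and -1.52, and MRPL37, at -1.15 and -1.13. For 5 of these the later RNA was above the blanks on the B array only, and for MRP20 on both; the genes were named after their values were seen. MRP7, homologous to bacterial L27 near the peptidyl transferase centre, was below -1 on both arrays at 2.5, 3.5, 4.0, 4.5 and 5.0 h.

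**Figure D2:**
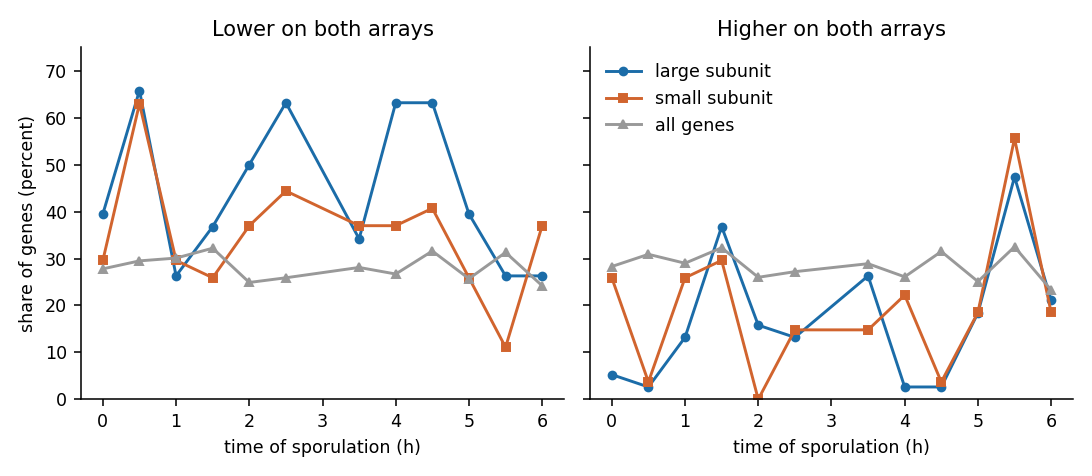
Share of genes (y axis, percent) whose log2 ratio lay below 0 (left) or above 0 (right) on both arrays of a time (x axis, hours), for 38 large subunit, 27 small subunit and all 6283 genes. The low share at 0.5 h is 65.8% and 63.0%, and the high share at 5.5 h is 47.4% and 55.6%, against 29.5% and 32.5% of all genes.

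The comparison of the subunits asked whether large and small subunit messages moved apart. The large subunit median was below the small subunit median at 8 of 12 times, on both arrays at 5 of them (0.0, 0.5, 4.0, 4.5 and 5.0 h). The difference, large minus small, ran from -0.26 at 4.0 h to 0.14 at 6.0 h. From 4.0 to 5.5 h it was -0.26, -0.20, -0.20 and -0.18. Its spread between times of a window was 0.149 (pooled SD). This SD comes from the same differences, so it cannot serve as a test of them. Both arrays gave the same sign at 6 of 12 times. At 5.5 h the A array gave -0.39 and the B array 0.21. The 0.0 h sample, in which time-zero RNA was set against itself, gave -0.13. Genes of a subunit are not replicates and each time is 1 sample, so the difference has no p-value.

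**Figure D3:**
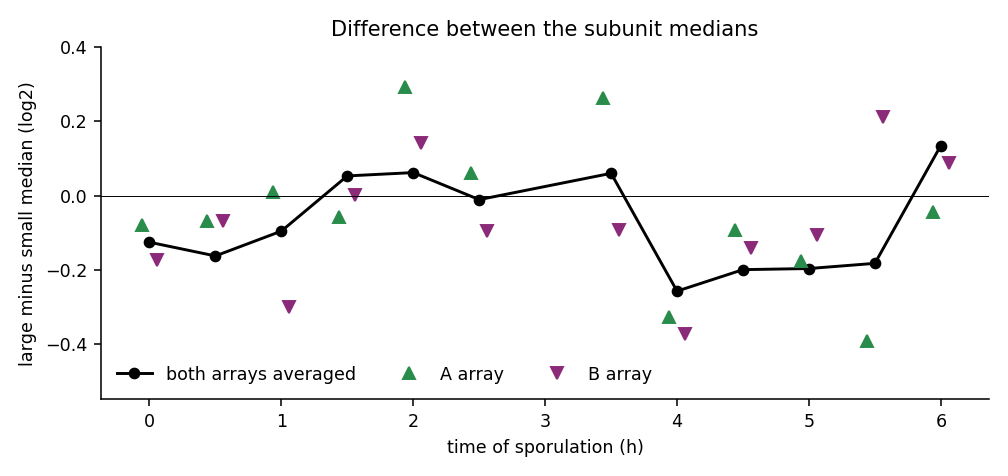
Large minus small subunit median in log2 units (y axis) at each time (x axis, hours), from the averaged arrays (line) and from the A and B arrays singly (triangles). At 5.5 h the A array gives -0.39 and the B array 0.21, and at 0.0 h, with the same RNA in both channels, the averaged value is -0.13.

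Early minus zero asked which members differed in the first 2.0 h. The limma fit called 0 members and 0 of 6283 genes (0%), with 0 members and 5.87% of all genes at an unadjusted p under 0.05. The median was -0.11 for the large and -0.17 for the small subunit, against -0.02 over all genes, and 27 of 66 members (40.9%) lay above 0, against 49% of all genes. The lowest were MRPS17, homologous to bacterial S17, at -1.32 ± 1.30 (SE), MRP7 at -1.12 ± 0.81, RSM24, a small subunit protein, at -0.94 ± 0.68, and MRPL1, homologous to bacterial L1, at -0.83 ± 0.47. MRPL1 was at -0.999, -1.52, -1.01 and -1.07 at the 4 early times and at -0.32 at 0.0 h. At the other end were RSM18, homologous to bacterial S18, at 1.24 ± 0.82, MRPL37 at 0.63 ± 0.93, MRPL49 at 0.62 ± 0.65 and MRPL27 at 0.48 ± 0.84. The 0.0 h value of RSM18 was -1.04 and its early mean 0.20.

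Middle minus early again gave 0 called members and 0 of 6283 genes (0%), with 0 members and 7.31% of all genes at an unadjusted p under 0.05. The large subunit median was -0.21 and the small subunit median 0.01, against 0.00 over all genes, and 13 of 38 large (34.2%) and 14 of 27 small subunit genes (51.9%) lay above 0, against 50.2%. At the low end stood MRPL8, homologous to bacterial L17, at -0.78 ± 0.41, MRPL37 at -0.69 ± 0.59, MRPL28 at -0.66 ± 0.51 and MRPS16 at -0.61 ± 0.58. At the high end stood MRPS18 at 0.64 ± 0.38, MRP49 at 0.63 ± 0.47, RSM22, related to methyltransferases, at 0.51 ± 0.39 and MRP4, homologous to bacterial S2, at 0.46 ± 0.27. All 8 differences were within 2 SE. MRPS16, homologous to bacterial S16, had its highest value of 1.54 at 1.5 h, with 1.03 and 2.05 on the 2 arrays, and lay at -0.85, 0.34, -1.31 and -0.12 in the middle window.

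Late minus middle was the comparison in which most members leaned one way. A total of 54 of 66 members (81.8%) lay above 0, against 51.5% of all genes, 30 of 38 in the large and 23 of 27 in the small subunit. The medians were 0.37 and 0.32, against 0.03 over all genes. Limma called 1 member at an adjusted p under 0.05 (1.52%), against 228 of all genes (3.63%), and that member fell; no member was among the 208 genes called higher (3.31%). At an unadjusted p under 0.05 there were 17 members (25.8%, against 19% of all genes), of which 16 were higher (24.2%, against 12.4%) and 1 lower (1.52%, against 6.57%). In 15 members every late value exceeded every middle value (22.7%, against 9.93%), and in 3, MRPL6, MRP4 and RSM26, every late value was below every middle value (4.55%, against 5.25%). From the A arrays alone 51 of 66 lay above 0 (52.5% of all genes) and from the B arrays alone 45 (50.3%). In either, 0 members and 0% of all genes were called. Without the 5.5 h sample, 47 of 66 lay above 0 (52.0% of all genes), the large subunit median was 0.28, the small subunit median 0.04, and 0 members were called (1.97% of all genes).

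MRPL6, homologous to bacterial L6, was the member that fell. At the early times it was at -0.26, -0.25, 0.13 and -0.36, at the middle times at 0.39, 0.34, -0.59 and -0.07, and at the late times at -1.47, -1.56 and -0.86. The late values lay below all the others, with no overlap. The fall was 1.31 ± 0.32 on the log2 scale (SE, n = 3 against 4; limma adjusted p = 0.0384), 0.94 from the A arrays and 1.68 from the B arrays. The arrays of single late times differed widely, with -0.60 and -2.34 at 5.0 h, -0.55 and -2.57 at 5.5 h, and -1.81 and 0.08 at 6.0 h. Its later RNA was above the blanks on 3 of 8 middle and 4 of 6 late arrays. The adjusted p ran from 0.0197 to 0.567 over 20 alternatives and stayed under 0.05 in 4, which were the fits without 2.0, 4.0 or 6.0 h and the authors' deposited table; it missed 0.05 without 0.5, 1.0, 1.5, 2.5, 3.5, 4.5, 5.0 or 5.5 h, and the log2 difference lay between -1.68 and -0.79 throughout.

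**Figure D4:**
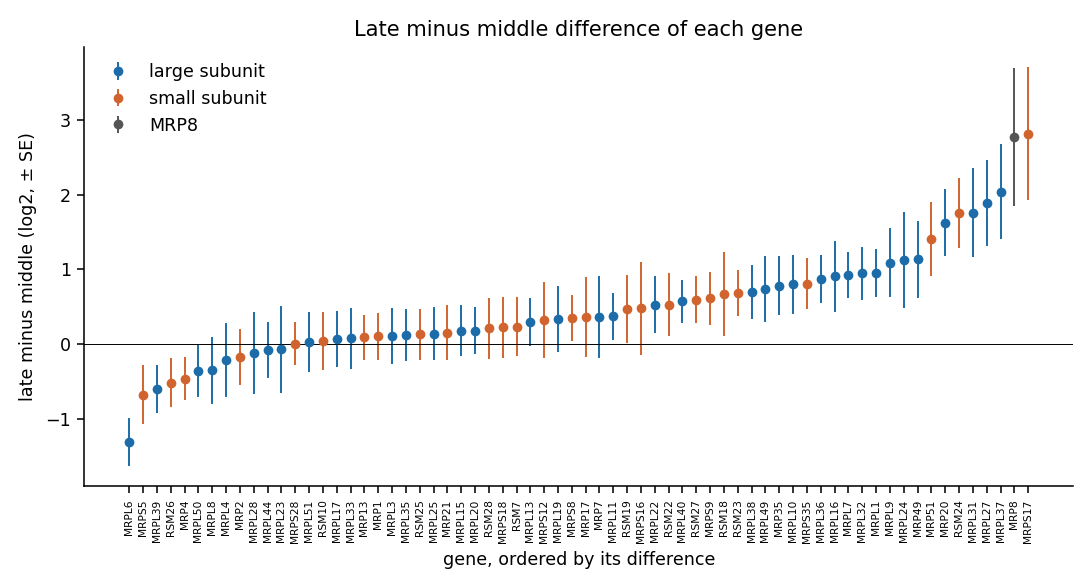
Late minus middle difference in log2 units (y axis) of the 66 members in order of size (x axis), coloured by subunit, with bars of ± 1 SE from the limma fit. MRPL6 at -1.31 is the one member past the adjusted threshold, and the members of both subunits are mixed along the order.

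The largest positive differences were those of genes that peaked at 5.5 h. MRPL27, a mitochondria-specific large subunit protein, was at 0.04, 0.48, 0.79 and -0.12 at the early, -0.72, 0.96, 0.21 and 0.27 at the middle and 1.30, 3.77 and 1.16 at the late times. All its late values exceeded its middle ones, by 1.89 ± 0.58 between the means (limma adjusted p = 0.0929). MRPL37, also mitochondria-specific, was at -0.54, 0.46, 1.02 and 0.11, then -0.84, 1.10, -1.14 and -0.81, then 0.43, 3.05 and 1.37. Its late and middle values overlapped through the 3.5 h value, and the difference was 2.04 ± 0.64 (limma adjusted p = 0.102). MRPS17, of the small subunit, was at -1.28, 0.59, -0.45 and -1.85, then -0.18, -0.45, -0.69 and 0.08, then 1.42, 5.41 and 0.68. Its late values exceeded its middle ones, by 2.82 ± 0.89 (limma adjusted p = 0.104). Without 5.5 h the 3 differences were 1.05, 1.32 and 1.36. The averages at 5.0 and 6.0 h join A and B arrays that differed. MRPL27 gave 0.86 and 1.73 at 5.0 h and 2.065 and 0.25 at 6.0 h. MRPL37 gave -0.96 and 1.82, then 2.41 and 0.32. MRPS17 gave 0.165 and 2.68, then 2.41 and -1.05. On 1 array of each of these times the sporulation markers were near time zero. The part of this in the height of the 5.5 h peak was not tested.

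MRP8, named from sequence as a mitochondrial ribosomal protein but of unknown function, was high at the same time. It was at -0.11, 0.71, 1.41 and -1.42 at the early, -0.30, 0.04, 0.58 and -1.18 at the middle and 1.90, 5.26 and 0.51 at the late times, 2.77 ± 0.92 higher in the late window (limma adjusted p = 0.119), with overlap, and 1.42 higher without 5.5 h. Among the remaining large differences, RSM24 was at 1.75 ± 0.46 (limma adjusted p = 0.0552), MRP20, homologous to bacterial L23 at the exit of the peptide tunnel, at 1.62 ± 0.45 (0.0688) and MRPL31 at 1.76 ± 0.59 (0.123). None of these passed the test in the fit of all samples. Without the 6.0 h sample RSM24, MRPL27, MRP8, MRPS17 and MRP51 did, by 2.30 ± 0.43, 2.35 ± 0.62, 3.79 ± 0.89, 3.73 ± 0.89 and 1.87 ± 0.51 with limma adjusted p from 0.00882 to 0.0462; with MRPL6 these were 6 members (9.09%), against 7.42% of all genes in that fit. MRP20 and MRPL37 passed without 3.5 h, with adjusted p of 0.0402 and 0.0273, and without 5.0 h, with 0.0296 and 0.0483; they were the only members called in these fits (3.03%), against 3.88% and 3.95% of all genes. At the lower end, behind MRPL6, were MRPS5, homologous to bacterial S5, at -0.68 ± 0.39, MRPL39 at -0.60 ± 0.32 and RSM26 at -0.52 ± 0.33.

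At 5.5 h, 34 of 66 members (51.5%) were above 0 on both arrays, against 32.5% of all genes, and 12 (18.2%) were above 1 on both, against 11%. The 12 were 8 large subunit genes (MRPL16, MRPL24, MRPL27, MRPL31, MRPL36, MRPL37, MRPL49 and MRP49), 3 small subunit genes (MRPS17, RSM24 and MRP51) and MRP8, all named after their values were seen. MRPL8 alone was below -1 on both, at -1.37 and -2.04, against 6.05% of all genes. A total of 32 members (48.5%) had the highest of their 12 values at 5.5 h, against 20.4% of all genes, 18 of 38 in the large and 13 of 27 in the small subunit, and 2 had their lowest there, against 17.1%. The median of the small subunit was 0.40 on each array, and that of the large subunit 0.01 on the A and 0.62 on the B array.

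The time-zero channel carries the same RNA on every array, and on the 5.5 h arrays it was low for several of these genes. None of the 12 genes above 1 on both arrays was above the blanks in the time-zero channel of both, 7 were on 1 array and 5 on neither. Over all members this channel was above the blanks for 9 of 66 on the A and 34 of 66 on the B array of 5.5 h, and a low time-zero signal raises the ratio by which the 12 were picked. For MRP8 the time-zero channel was above the blanks on 22 of 24 arrays, the exceptions being both 5.5 h arrays. Taken singly, the log2 signal of its later RNA was 0.85 higher at 5.5 h than in the middle window, while that of its time-zero channel was lower, with a difference of -4.63. For MRPS17 these differences were 2.996 and -2.73. For MRPL27, MRPL31 and MRPL37 the later RNA was higher by 2.93, 2.74 and 2.99, and the time-zero channel differed by -0.66, -1.002 and -0.49. Over the large subunit the medians were 0.76 and -0.32, over the small subunit 0.48 and -0.52, and over all genes -0.02 and -0.05. For the whole late window the later RNA was higher for 43 members (65.2%), against 52.4% of all genes, and the time-zero channel lower for 35 (53.0%), against 50%. MRPL6 differed by -1.07 in its later RNA and by 0.24 in the time-zero channel. For MRP8 these late minus middle differences were 0.96 and -1.81.

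**Figure D5:**
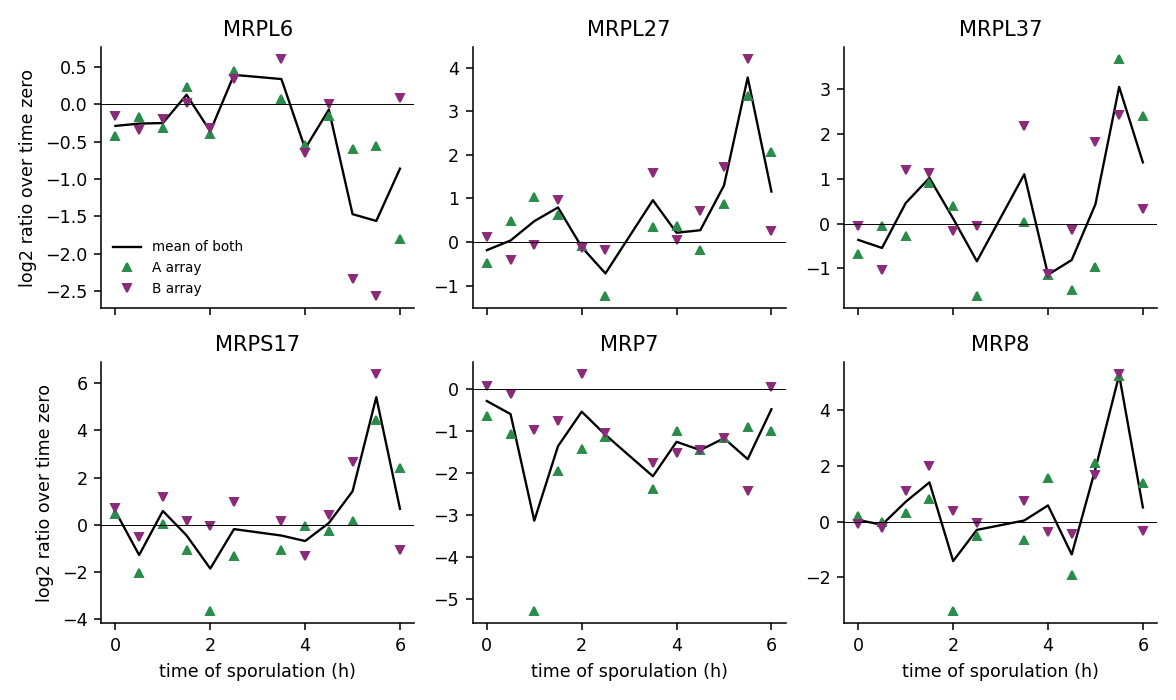
Log2 ratio over time zero (y axis, scaled per panel) against time (x axis, hours) for 6 members, from the A and B arrays (triangles) and their mean (line). MRPL6 is lowest at 5.0 and 5.5 h, where its 2 arrays differ by more than 1; MRPL27, MRPL37, MRPS17 and MRP8 peak at 5.5 h, and MRP7 is below 0 at every time.

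The members named MRP and a number were spread over the whole range of profiles. In the large subunit, MRP7 was below 0 at all 12 times, from -3.14 at 1.0 h, where its arrays gave -5.31 and -0.98, to -0.29 at 0.0 h. MRP20 went from -1.77 at 4.0 h to 1.47 at 5.5 h, MRP35, homologous to bacterial L35, from -0.55 at 2.5 h to 1.68 at 5.5 h, and MRP49, which is mitochondria-specific, from -0.61 at 2.0 h to 3.08 at 5.5 h. Each of these 3 was highest at 5.5 h.

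In the small subunit, MRP51 went from -1.13 at 2.0 h to 2.13 at 5.5 h, and its late minus middle difference was 1.41 ± 0.50. Taken singly, its time-zero channel differed by -1.27 between these windows and its later RNA by 0.14. At 5.5 h against the middle window the later RNA of MRP51 was 1.66 higher and its time-zero channel differed by -1.12. The part of each channel was not tested. MRP17, homologous to bacterial S6, ranged from -1.54 at 2.0 h to 0.83 at 5.5 h. MRP21, homologous to bacterial S21, ranged from -0.84 at 0.5 h to 0.85 at 1.5 h. MRP1 lay between -0.48 and 0.48, MRP2, homologous to bacterial S14, between -0.67 and 0.65, MRP4 between -0.96 and 0.41, and MRP13 between -0.60 and 0.45. Averaged over both arrays, MRP1, MRP2, MRP4 and MRP13 thus stayed within a doubling or a halving of time zero. Single arrays of MRP1, MRP2 and MRP4 went beyond this. MRP1 gave -1.43 on the A and 1.11 on the B array of 3.5 h. MRP2 gave -1.31 on the B array of 5.0 h, and MRP4 -1.09 on the A array of 1.0 h. MRP4 and MRP13 were above the blanks in the later channel on 3 and 4 of 24 arrays.

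Other members stood out at single times. At 1.5 h the lowest were MRP7 (-1.37), MRPL7, homologous to bacterial L5 (-1.04), and MRPL1 (-1.01), and the highest MRPS16 (1.54), MRP8 (1.41) and MRPL37 (1.02). At 3.5 h MRP7 (-2.08), MRPL1 (-1.37) and MRPL44 (-1.21) were lowest, and MRPL37 (1.10), RSM10, homologous to bacterial S10 (1.09), and MRPL4, homologous to bacterial L29 (1.07), highest. At 6.0 h the order ran from RSM28 (-1.07), MRPL39 (-0.98) and MRPS5 (-0.95) to MRPL27 (1.16), MRPL32 (1.25) and MRPL37 (1.37). MRPL37 was thus among the highest 3 at all of these times, and MRP7 and MRPL1 among the lowest 3 at the earlier of them.

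Many of the genes named above are dim. Arrays with the later RNA above the blanks numbered 7 of 24 for MRPL39 and RSM28, 8 for MRP49, MRPL7 and MRP2, 6 for RSM22, and 9 for MRPS5 and RSM26. They numbered 10 for MRPL6, MRPL31, MRPL32, MRPL24, MRPS17, MRPS18 and MRP35, 11 for MRPL36 and MRPL49 and 12 for MRPL27. At the bright end were MRP8, on 24 arrays, MRPL10, on 23, and RSM7, on 22. MRPL10, homologous to bacterial L15, was at 0.80 ± 0.39 and RSM7, homologous to bacterial S7, at 0.24 ± 0.40 in late minus middle.

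Late minus zero gave 0 called members, against 56 of all genes (0.891%), and at an unadjusted p under 0.05 there were 2 members (3.03%), against 11.7%. The medians were 0.12 for the large and 0.08 for the small subunit, against -0.02 over all genes, and 38 of 66 lay above 0 (57.6%, against 48.8%). The 2 members were MRPL27, at 2.26 ± 0.87 (limma adjusted p = 0.326), and RSM18, at 1.92 ± 0.84 (0.399). RSM18 was at -1.04 at 0.0 h, with -2.07 and -0.02 on the arrays, and its late mean was 0.88. MRP8 stood at 2.50 ± 1.39, MRPL37 at 1.98 ± 0.96 and MRPS17 at 1.93 ± 1.34. Taken singly, the log2 signal of the later RNA of MRP8 was 20.26 at 0.0 h and 20.09 in the late window, so it did not rise. For MRPL37 it was 15.78 and 17.99, and for MRPS17 16.36 and 16.94. The lowest were MRPL8 at -1.13 ± 0.67, MRPL6 at -1.01 ± 0.48, MRP7 at -0.82 ± 0.84 and MRPL39 at -0.77 ± 0.48. This comparison shares its late samples with the preceding one.

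Within the large subunit the genes with a bacterial homologue had a late minus middle median of 0.64 (18 of 24 above 0) and the mitochondria-specific genes 0.16 (12 of 14). In the small subunit these were 0.32 (14 of 17) and 0.37 (9 of 10). In early minus zero, 1 of 10 mitochondria-specific small subunit genes lay above 0, with a median of -0.34, against 8 of 17 with a bacterial homologue, with a median of -0.08. These counts were not tested against each other.

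Further proteins of the same ribosome carry other symbols. Of 7 measured in the large subunit, 6 lay above 0 in late minus middle (85.7%, against 51.5% of all genes), with a median of 0.67. Of the 7, 1 was called higher, against 3.31% of all genes. It was YML6, homologous to bacterial L4, at 1.47 ± 0.36 (limma adjusted p = 0.0415). MHR1, which also acts in mitochondrial DNA recombination, was at 0.90 ± 0.39, MNP1 at 0.34 ± 0.37 and RML2, homologous to bacterial L2, at -0.13 ± 0.34. The median of the 7 genes reached 1.12 at 5.5 h. Of 6 measured in the small subunit, 3 lay above 0 and 0 passed, from FYV4 at -0.35 ± 0.29 and PET123 at -0.07 ± 0.30 to EHD3 at 0.44 ± 0.31 and NAM9, homologous to bacterial S4, at 0.70 ± 0.35.

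The rest of the mitochondrial gene expression machinery showed smaller medians in late minus middle, where 51.5% of all genes lay above 0 and 3.63% were called. Of 13 translation factors 9 lay above 0, with a median of 0.07 and 0 passing; MRF1, the release factor, was at 1.05 ± 0.29 and TUF1, the elongation factor that brings aminoacyl-tRNA to the ribosome, at 0.78 ± 0.48, whereas PTH1 was at -0.58 ± 0.45 and RSO55 at -0.42 ± 0.60. Of 13 mitochondrial aminoacyl-tRNA synthetase genes 4 lay above 0, with a median of -0.21 and 0 passing, from MSD1 at -0.73 ± 0.30 and MSR1 at -0.68 ± 0.36 to ISM1 at 0.27 ± 0.28 and MSW1 at 0.46 ± 0.32. Of 17 translational activators 7 did, with a median of -0.23 and 0 passing, from PET309, which acts on the COX1 message, at -1.03 ± 0.38 and CBP6 at -0.60 ± 0.34 to CBP3 at 0.70 ± 0.38 and AEP3 at 0.73 ± 0.30.

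Of 16 assembly and ribosomal RNA genes 7 lay above 0, with a median of -0.10 and 0 passing. MRM1, which methylates the large mitochondrial ribosomal RNA, was at -1.05 ± 0.40 and MTO1, of tRNA modification, at -1.04 ± 0.44, while MTG1, a GTPase of large subunit assembly, was at 1.00 ± 0.52. YTA12, a subunit of the protease that matures the MRPL32 protein, was at 0.73 ± 0.45, beside 0.95 ± 0.36 for MRPL32 itself. Of 7 genes of mitochondrial transcription and RNA turnover 1 was called higher, against 3.31% of all genes. It was ABF2, which packages mitochondrial DNA, at 1.87 ± 0.44 (limma adjusted p = 0.0322). PET127 was at 1.31 ± 0.42, DSS1 at -0.37 ± 0.32 and MTF2 at -0.32 ± 0.36.

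Of 134 cytosolic ribosomal protein genes 8 lay above 0 in late minus middle (5.97%, against 51.5% of all genes), with a median of -1.13. Of the 134, 4 were called lower, against 0.318% of all genes, and 0 higher, against 3.31%. Their arrays disagreed in sign at several times, with medians of 0.46 and -1.13 on the A and B arrays of 2.5 h and 0.61 and -3.46 on those of 5.0 h. At 5.5 h the medians were -0.71 and -2.29 and at 6.0 h -1.13 and -0.39. The 38 nuclear genes of the respiratory chain had a late minus middle median of 0.17, with 26 above 0 and 0 passing, from NDE2 at -0.79 ± 0.32 and COX8 at -0.76 ± 0.41 to COX5B, the hypoxic isoform of a cytochrome oxidase subunit, at 1.25 ± 0.39 and SDH4 at 1.44 ± 0.58. At the 3 late times their median was -0.85, -0.46 and -0.54, and that of the 66 members -0.27, 0.51 and -0.03.

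The members followed each other only loosely over the 11 later times. The median correlation between 2 genes was 0.176 within the large subunit, 0.213 within the small subunit and 0.187 between the subunits, against 0.596 within the cytosolic ribosomal proteins and 0 between members and all other genes. It was -0.161 with cytosolic ribosomal and 0.001 with respiratory chain genes. These values describe genes that share samples and arrays. Of the 66 members 32 were dim, against 2583 of all 6283 genes, and across members the paired arrays correlated with a median r of 0.182. The part of low signal in the members' correlations was not tested. Among the members, MRPL31 (r = 0.921), MRPL16 (0.906) and MRPL27 (0.901) followed the median of the other members most closely, and RSM26 (-0.505), MRP4 (-0.503) and MRPL6 (-0.494) ran against it.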

How the data were processed

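Total RNA of 12 samples was measured on 24 spotted 2-colour arrays. The deposited array files hold an integrated intensity per spot and dye, quantified by the authors from 2 scanned images per array, per the file headers; the deposited intensity was taken as already background-subtracted, since values below 0 occur. The dyes follow the labels; the headers list the control image first on every array, and reading the channels in that order instead would turn the B arrays, giving A against B correlations from -0.576 to 0.0206 over all genes in place of -0.0206 to 0.576. The authors' deposited series table gives log2 ratios, 1 for each gene at each time; its normalization is not stated in the sources used, scale and direction were read from its match to the arrays, and its column medians lie between -0.008 and 0.055. It holds 64 of the members.

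Each array has 13056 spots, 12614 of them for genes; 12374 to 12603 were used per array after leaving out spots marked U or Z (letters the files do not explain) and values at or below 0. Log2 ratios were loess-corrected (span 0.3, 4 iterations), the 2 spots of a gene averaged, and the A and B arrays, technical repeats, averaged to 1 value per time. Files were read with jsonlite 2.0.0 in R 4.3.3, and limma 3.58.1 (lmFit and eBayes) was run with 4 window means over all 12 samples and 6283 genes, with Benjamini-Hochberg adjustment at 5%; the lone 0.0 h sample is assumed to vary like the others, and 0.0 h is itself time-zero RNA against time-zero RNA. The residual degrees of freedom are 8. Single-channel signals are loess ratios recombined with quantile-normalised mean signals. The scripts were tested on simulated data with known changes. There a late minus middle log2 change of 1 was called in 20% of 50 changed genes, and a change of 2 in 68%. A member that was not called is therefore not shown to be unchanged.

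The R64 gene table gave symbols to 5716 identifiers through the locus tag, all members included, and to 57 through an older name; 520 kept the array's identifier. Subunit and homology classes and gene lists were written from general knowledge; MRP35 was classed after the files were opened. The members, lists and tests were chosen with earlier results of these data known. Genes named were the members called; the 4 highest and 4 lowest members per contrast; the 3 highest and lowest at 1.5, 3.5 and 6.0 h; every MRP and number; and 2 highest and 2 lowest of each other list. Further names were chosen after their values were seen. Alternatives covered background, marked spots, scaling, centring, each dye orientation, filters on dim genes, windows, the control, the authors' table and each time left out. Promoter sequence and coordinates were not used here. The number of arrays limits the precision.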

Additional observations from a re-analysis of the deposited data

Results flagged for a closer look

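Within the early and middle windows, a value was singled out when its gap to the nearest other value exceeded Dixon's critical value of 0.829 of the window's range for 4 samples. Of 58 groups tested 2 met this, and chance alone gives about 1 in 20. MRPL1 was at -1.52 at 1.0 h, with the other early values between -1.07 and -0.999. MRPL37 was at 1.10 at 3.5 h, with the other middle values between -1.14 and -0.81; its arrays gave 0.03 and 2.17 there.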

How the results depend on the processing

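Of the values for named members, 650 kept their direction and side of the threshold. Another 21 passed the threshold only in the alternative, 16 lost it and 3 reversed. A median counted as kept when it moved by less than its pooled SD between times of a window, whatever its sign. By that rule 246 medians were kept and 18 moved. A count was kept when it changed by at most a factor of 1.5, which held for 151 counts and failed for 25. No paired analysis was possible because the samples of a window are successive times, numbered in order, with nothing that pairs them across windows. In late minus middle, 0 members were called with normexp, with spots marked S left out, with scaling between arrays, with median centring, from the A or the B arrays alone, without the dimmest genes, with only genes above the blanks on over 12 arrays, and with windows ending at 1.5 and 4.0 h, against 0% to 2.48% of all genes. With the authors' deposited values, 5 were called (7.81%, against 4.23% of all genes), and 0 to 6 with single times left out (1.97% to 7.42% of all genes). Without 5.0 and 6.0 h, chosen after seeing the data, 15 were called (22.7%, against 11.2%); the late window is then the 5.5 h sample alone, with the spread taken from the other windows. Setting windows against a ratio of 0 called 3 members in early minus zero (4.55%, against 11.2% of all genes) and 11 in late minus zero (16.7%, against 22.6%); the spread of the control is then left out. Dropping 5.0 and 6.0 h called 6 in late minus zero (9.09%, against 5.32%). Large minus small medians moved in early minus zero to 0.23 (A arrays), and over single times left out from 0.022 to 0.149. In middle minus early they moved to -0.39 (median centring). In late minus middle they were 0.21 with normexp, 0.24 with median centring, 0.24 from the B arrays, 0.21 without the dimmest genes, -0.24 without 5.0 and 6.0 h, and 0.021 to 0.241 with single times left out. In late minus zero they were 0.30 with scaling, -0.20 from the A arrays, -0.32 with genes above the blanks and -0.14 without 5.0 and 6.0 h. Without 5.0 and 6.0 h, the large and small medians were 0.62 and 0.86 in late minus middle and 0.44 and 0.59 in late minus zero. With single times left out the small median ran from 0.042 to 0.507 in late minus middle and from -0.20 to 0.30 in late minus zero. With the filter on blanks, 17 members lay above 0 in early minus zero and 16 in middle minus early, among fewer genes tested. Of the named members 3 reversed: MRPL27 in early minus zero to -0.032 and MRPS18 in middle minus early to -0.16, both from the B arrays, and RSM22 in middle minus early to -0.14 in the authors' deposited table. The causes were not tested. Low signal over background limits the ratios of the dim members.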
